A study of Mus musculus with 8 samples.

Results

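Colony cells are what mouse bone marrow gave after 7 days on an endothelial monolayer in HSC (haematopoietic stem cell) media. Their RNA was measured on 2 arrays, of 8 in the series, and genes were ranked by how bright their probes were on those 2 arrays alone. A gene entered the ranking where a probe was well above background on both colony arrays, by the mark of the scanner software. This held for 24479 of 34803 genes with a probe, or 70.3%. Levels are log2 signal relative to the 75th percentile of the same array, so that 0 is the signal that 75% of probes do not exceed and each unit is a 2-fold step in signal.

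The series asks whether endothelial cells form a niche in which macrophages of an alternatively activated kind arise. Its other 3 groups, 2 arrays each, are bone marrow-derived macrophages, cultured for 7 days in M-CSF, the growth factor of the lineage. They were kept in control media or given IL4 (interleukin 4) or LPS (lipopolysaccharide) for 24 hours. All 4 groups, controls included, came from a B6 strain with the transgene Tg(CAG-DsRed*MST)1Nagy, which encodes a red fluorescent protein. The labels name neither separate animals or cultures for the 2 samples of a group, nor the source of the endothelial cells or their removal before extraction. Colony cells and macrophages differed in the growth surface as well as in the medium, and these cannot be told apart. As the labels name no separate animals or cultures, the p-values below rest on a spread between samples that may be technical.

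In most cell types the brightest transcripts encode ribosomal proteins, actin, ferritin and enzymes of glycolysis, and they say little about cell kind. The kind shows in markers. Blood cells other than red cells carry Ptprc (CD45), macrophages add the M-CSF receptor Csf1r and the surface protein Adgre1 (F4/80), and granulocytes and mast cells store enzymes in granules. Endothelial cells line vessels and hold Cdh5 (VE-cadherin), Pecam1 and Tie receptors. Mesothelial cells line the body cavities and make Msln (mesothelin), uroplakins and the factor Wt1 together with keratins, and fibroblasts and smooth muscle cells make collagen, Sparc, Dcn and contractile proteins. In RNA from a mixture, fewer cells of a type and less RNA per cell cannot be told apart.

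The 2 colony arrays had 67.5% and 66.8% of spots well above background, within the range of 62.4% to 72.2% over all 8, and no spot was saturated. Over ranked genes they correlated at r = 0.997 across genes, which are not independent replicates. Their median difference was 0.0966, 96.2% of genes lay within 0.5 and 160 genes differed at least 2-fold. The probes of a gene differed more than the arrays did. Among 4955 genes with 2 or more measured probes, the levels of the probes of a gene spanned a median of 2.37 and the upper quartile was 4.09. A rank is therefore read here in bands, in percent of the 34803 genes: the top 1% ends at a level of 7.15 (rank 348), the top 5% at 4.63, the top 10% at 3.32 and the top 25% at 0.945.

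Some of the brightest probes carried short letters that recur across unrelated genes, and they are shown first because they set part of the top of the ranking. Among the 100 highest names, 19 had a probe with such a repeated stretch, as did 8 of the highest 30. The most shared stretches of 20 bases, in capitals below, have the letters of the mouse short interspersed repeats B1 (the first) and B2 (the second and the third). Each stands for a family of stretches of 20 bases, linked by the probes of coding genes that share them. All stretches of a family were searched in both directions in all 55681 probes of 60 bases, with up to 2 differences allowed. A probe that matched any of them is counted below as holding the stretch. For each stretch a bright probe is followed by a probe that holds the opposite strand, and 30 of the 60 bases are printed.
Glrx2: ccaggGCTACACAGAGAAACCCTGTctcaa
Elk1: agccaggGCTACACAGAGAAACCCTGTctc
Timmdc1: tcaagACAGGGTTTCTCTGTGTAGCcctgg
Synrg: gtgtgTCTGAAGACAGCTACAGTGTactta
Nanog: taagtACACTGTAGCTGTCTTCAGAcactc
Prorsd1: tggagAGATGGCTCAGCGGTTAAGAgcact
Dennd5b: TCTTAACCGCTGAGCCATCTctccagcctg
Glrx2, named for a mitochondrial glutaredoxin, was the highest name of all, at 9.01 and 8.97 on the 2 colony arrays. Its whole probe lies at chr1:145596708-145596767 on the plus strand of build mm9, as do all positions here. The control mean was 9.74 and the IL4 and LPS means were 9.46 and 9.34, so on this scale the probe was somewhat brighter in macrophages. The probe of Elk1 (chrX:20510521-20510580, minus strand) read 8.71 and 8.67, and that of Timmdc1, with the opposite strand of the same stretch (chr16:38498801-38498860, minus strand), read 2.39 and 2.27.

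The same split by strand appeared for the second stretch and less for the third. Of probes that matched the family of the first stretch, 49 with the strand in Glrx2 had a median colony level of 2.26 and reached 8.99. The 20 probes with the opposite strand had a median of -1.49 and reached 2.33. For the family of the second stretch, 39 probes with the strand in Synrg had a median of 6.92 and reached 8.48. The 7 probes with the opposite strand had a median of -3.68 and reached 0.37. Synrg (chr11:83855517-83855576, plus strand) read 8.11 and 8.20. Nanog (chr6:122663676-122663735, plus strand), a gene of pluripotent cells, read 0.38 and 0.37. The third stretch gave medians of 2.31 over 26 probes and 0.79 over 12, and a highest level of 7.71 for the strand in Prorsd1 against 3.58 for that in Dennd5b. The strands were named by their brightness, so these values are a description. Control macrophages had like medians, for example 7.45 and -3.04 for the strands of the second stretch.

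**Figure D1:**
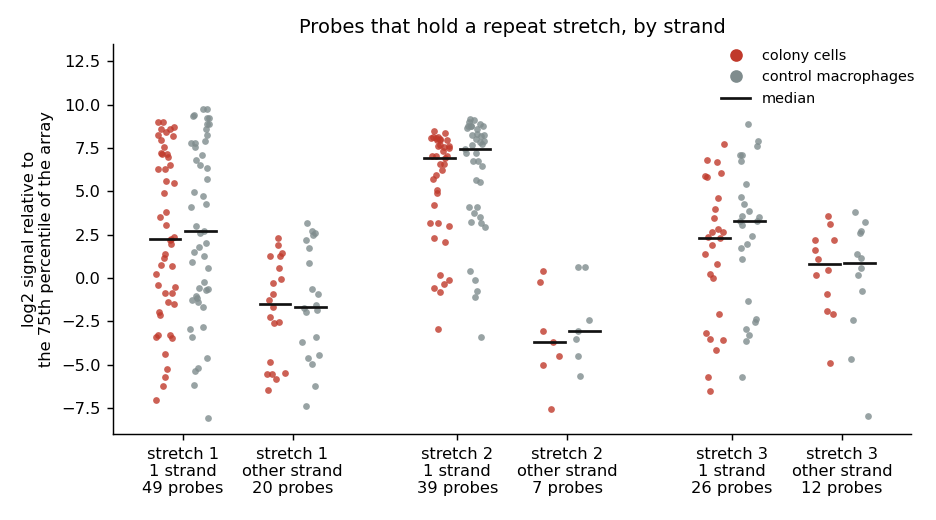
Levels of probes that match 1 of the 3 families of repeated stretches (x axis, split by strand), as log2 signal relative to the 75th percentile of the array (y axis). Each point is the mean of 2 arrays for a probe, in colony cells (red) or control macrophages (grey), and bars are medians. The second stretch shows the widest gap, with medians of 6.92 and -3.68 in colony cells.

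The stretch bears directly on a cell marker. Siglech, a marker of plasmacytoid dendritic cells, stood at rank 352 with 7.11 and 7.15, the highest level of any of 9 dendritic cell markers. Its probe (chr7:63034088-63034147, plus strand) holds the first stretch with 1 difference:
Siglech: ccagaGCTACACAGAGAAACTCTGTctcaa
The means of the macrophage groups for the same probe lay between 7.29 and 7.77. The other 8 dendritic cell markers had no member in the top 10%. Levels of Siglech, and of Cxcl11, whose probe read 8.11 and 8.22 and also holds the stretch, were therefore not used below to describe cell kinds. Probes with a repeated stretch gave 4.53% and 4.65% of the summed signal of the colony arrays, against 3.94% to 6.01% on the macrophage arrays.

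Without those probes, most of the brightest coding genes were transcripts that most cells hold in quantity. Actb, cytoskeletal actin, read 8.90 and 8.74 (rank 4), Tpt1, a translationally controlled protein, read 8.72 and 8.73, and Fau, a ribosomal protein fused to a ubiquitin-like domain, read 8.58 on both arrays. The glycolytic enzyme Gapdh read 8.60 and 8.44, and the ribosomal stalk protein Rplp0 read 8.47 and 8.55. Ferritin, the iron store, was as bright: Fth1 read 8.51 and 8.50 and Ftl1 read 8.35 and 8.41. Their macrophage means ran from 8.05 to 9.60. The zinc finger gene Zfp628, at rank 9 with 8.67 and 8.56, is not of that kind, and its probe shares no 20 bases with the probe of another coding gene. Slc10a1, Exosc2 and Milr1 also ranked in the first 24. Each of their probes shares 20 bases with the probe of at least 1 other coding gene, so these 3 readings are uncertain.

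Ribosomal proteins made up most of the rest. Of 85 genes for cytosolic ribosomal proteins, 50 were in the top 1% and 80 in the top 5%, and 22 were among the 100 highest names. Their summed signal was 6.68% and 6.69% of that of the colony arrays, against 5.93% to 6.49% in control and IL4 macrophages and 3.83% and 3.91% in LPS macrophages. In actin and its partners, 22 of 23 genes were in the top 10%. So were 67 of 83 subunits of the respiratory chain and 25 of 39 of the proteasome. The 100 highest names held 43 coding genes, 6 other genes of RefSeq, 19 probes with a repeated stretch and 32 names found only in the array files. Of these 32, 13 share 20 bases with the probe of a coding gene.

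Neighbours at the top were not separable. Among the 30 highest names with a gene symbol, from 8.99 down to 8.22, the 2 arrays failed to overlap in only 6 of 29 neighbouring pairs. The median gap between neighbours was 0.0152 and the median difference between the arrays was 0.0410. COX1, a subunit of cytochrome oxidase encoded in mitochondria, differed most between the arrays within the top 100, at 7.38 and 8.43. COX2 of the same complex read 7.94 and 7.96.

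**Figure D2:**
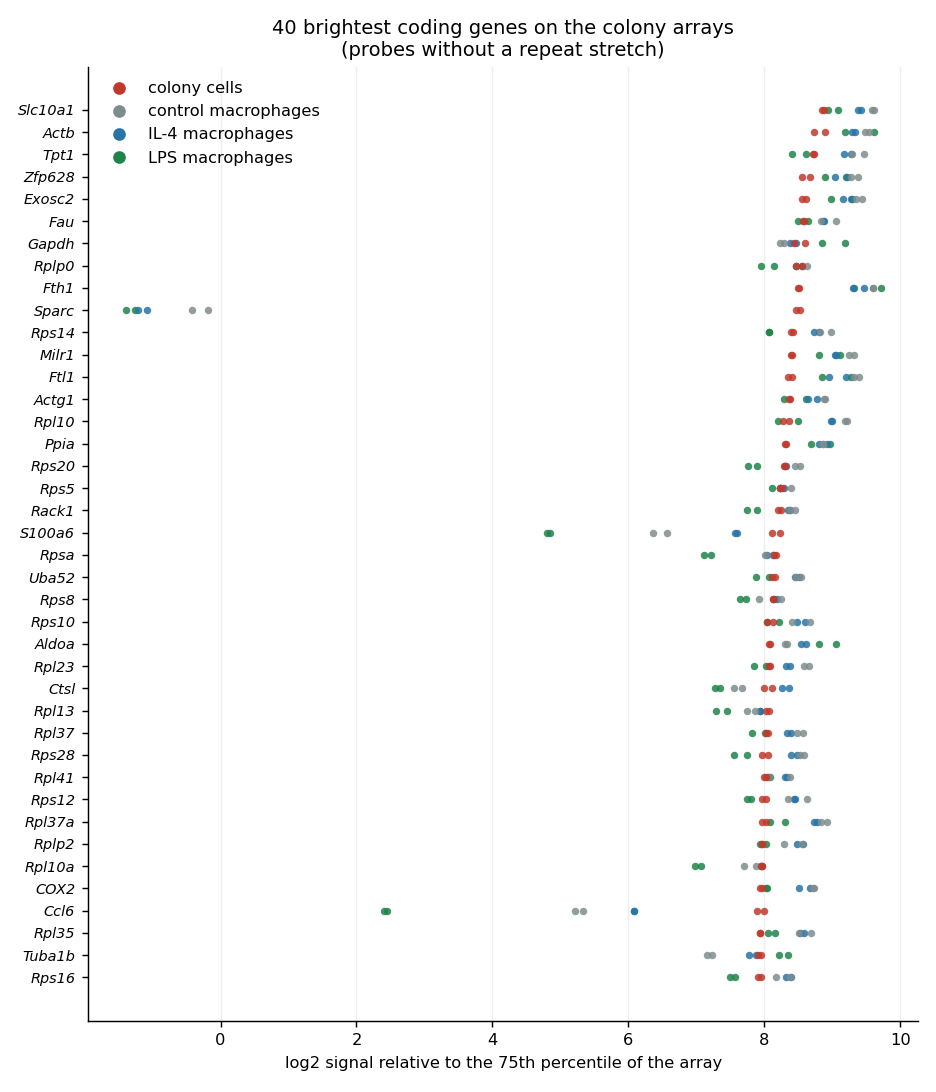
The 40 brightest coding genes on the colony arrays whose probes hold no repeated stretch (y axis, brightest at the top), as log2 signal relative to the 75th percentile of the array (x axis). Each point is 1 array, coloured by group. Sparc is apart from its macrophage values, with macrophage arrays between -1.40 and -0.18.

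Sparc, a glycoprotein that binds collagen and is secreted by fibroblasts, endothelial and other matrix-forming cells, was the exception. It stood at rank 19 with 8.53 and 8.46. The 6 macrophage arrays read between -1.40 and -0.18, which placed it at rank 11455 in control, 13129 in IL4 and 13373 in LPS macrophages. Its probe lies at chr11:55208939-55208998 on the minus strand. A second probe read 5.19 and 5.31 on the colony arrays and between -6.16 and -4.56 on the macrophage arrays. The groups were thus far apart with either probe, while the level, and with it the rank, depended on the probe.

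S100a6, Ccl6 and Spp1, also of the top 100, were above every macrophage array. S100a6, a calcium-binding protein, read 8.22 and 8.11 against means of 6.47 in control, 7.59 in IL4 and 4.83 in LPS macrophages. The chemokine Ccl6 read 7.99 and 7.90 against 5.27, 6.08 and 2.43. Spp1 (osteopontin), a secreted protein of macrophages and matrix cells, read 7.82 and 7.99 against 5.27, 4.82 and 4.98. The gap was smallest for S100a6 against IL4, at under 2-fold.

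Beside the macrophages the top of the ranking was largely shared. With 1 probe a gene in every group, the colony top 100 had 64 names in common with the control top 100, 65 with IL4 and 28 with LPS. Of the colony top 100, 97, 97 and 96 names lay in the top 1000 of these groups. Among the 100 brightest coding genes without a repeated stretch, 9 were at least 2-fold higher in colony cells than in all 3 macrophage groups and 1 was lower. Among the brightest 2000 the counts were 305 and 229. Over all 16231 coding genes tested, 15.4% were higher and 13.8% lower by this rule (limma, adjusted p under 0.05 and 2-fold in each comparison), and as the genes were picked by colony level nothing is read from the difference. Some of the genes counted as lower, among them Dennd4a, Spag7 and Creb5, read much alike across the arrays. Whether their probes share a signal was not tested. Small differences of the top 100 from control depended on the scaling: 17 names were higher and 62 lower, with a median of -0.44 against -0.35 over all genes, while quantile scaling gave 41 higher and 6 lower, with a median of 0.12 against -0.27.

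Just below the top 100, coding genes at least 2-fold higher than all macrophage groups were of several kinds, and those named here are a selection made after their values were seen. Tagln (transgelin, a contractile protein of smooth muscle) was at rank 150, with 7.72 and 7.61. Msln, the mesothelial surface protein mesothelin, followed at rank 173 with 7.62 and 7.56. The nucleolar protein Npm1 had a mean of 7.38 at rank 247. Fn1 (fibronectin) read 7.36 and 7.39 at rank 252, and Arg1, the arginase of alternatively activated macrophages, read 7.25 and 7.31 at rank 289. Acta2 (smooth muscle actin) read 7.26 and 7.22 at rank 313. The homeobox gene Rhox5 stood at rank 366 with 7.07 and 7.12, Dcn (decorin) at 368 with 7.13 and 7.05, Cpe (carboxypeptidase E) at 375 with 7.09 and 7.06, and Vcam1, a cell adhesion molecule, at 742 with 6.27 and 6.16. The lists of cell markers below give the same levels by kind of cell. They are read against all coding genes, of which 76.3% were well above background on both colony arrays and 11.6% were in the top 10%.

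**Figure D3:**
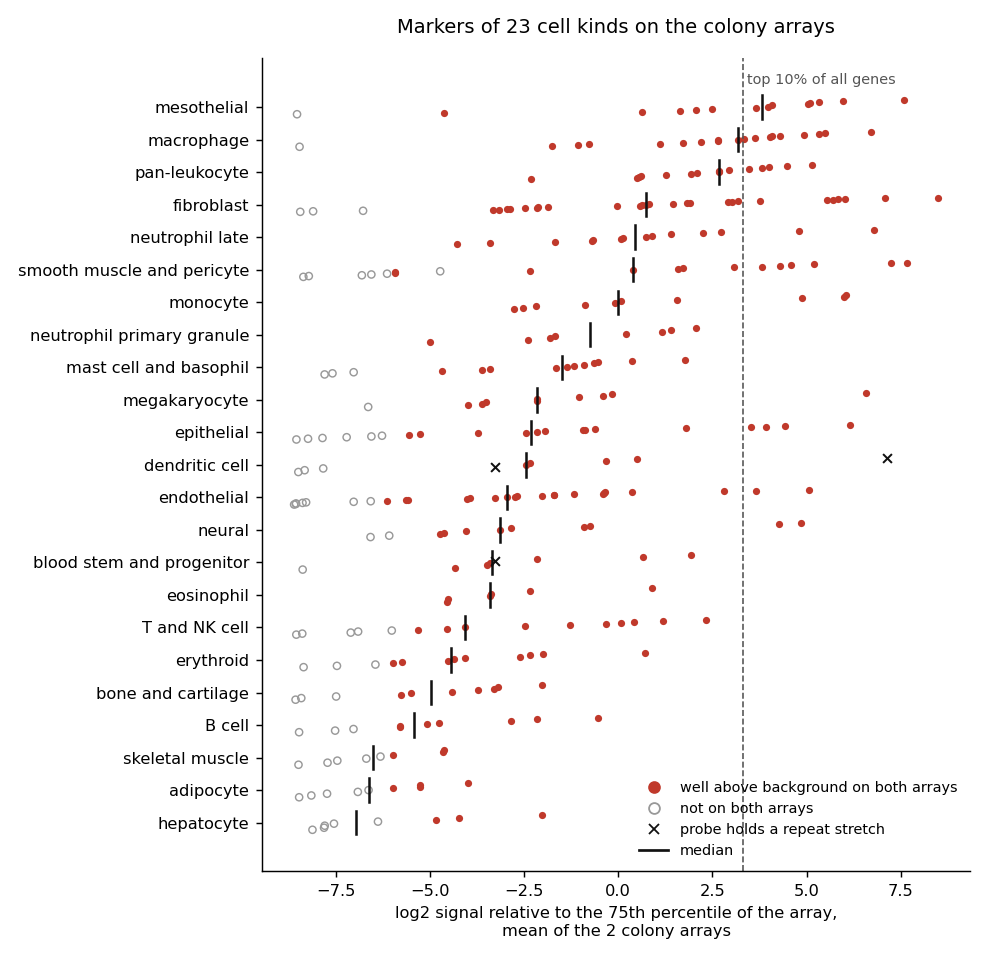
Levels of the markers of 23 cell kinds (y axis, ordered by median) on the colony arrays, as mean log2 signal relative to the 75th percentile (x axis). Filled points were well above background on both arrays, open circles were not, crosses are probes with a repeated stretch, black bars are medians and the dashed line is the start of the top 10%. Mesothelial, macrophage and pan-leukocyte markers have the highest medians.

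Macrophage markers were bright, and most were dimmer than in the macrophage cultures. Of 19 markers, 18 were well above background on both colony arrays and 9 were in the top 10%. Ctss, the lysosomal protease cathepsin S, led with 6.67 and 6.76, then Csf1r with 5.48 on both arrays, Cd68 with 5.33 and 5.34 and the pore-forming Mpeg1 with 4.84 and 5.02. The complement genes C1qc, C1qa and C1qb read between 3.98 and 4.31. Cd163, a scavenger receptor, was not well above background.

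Against control macrophages, 17 of the 18 macrophage markers tested were lower in colony cells and 1 was higher, with a median of -3.20 (limma, adjusted p under 0.05). Over all genes 46.6% were lower and 24.7% higher, with a median of -0.35. Against IL4, 16 were lower and 1 higher, where 47.4% and 24.2% of all genes were, and 15 were lower than in all 3 groups. In several lists below, members were below background in control and entered the test only through the colony arrays, where they had to be higher. Counts for these lists therefore cover members well above background on both arrays of both groups, a restriction added after the values were seen. Over all 22353 such genes, 22.3% were higher than control and 51% lower, with a median of -0.40. Csf1r was lower by 3.73 ± 0.10 (log2, standard error, 2 arrays a group, adjusted p = 2.0e-06), since control read 9.19 and 9.24. Its other 2 probes read 1.74 and 1.58, and 0.89 and 0.59, on the colony arrays, and were likewise below every macrophage array. Adgre1 read 2.64 and 2.67 against 7.02 and 7.11 in control (adjusted p = 9.8e-07). The gene that was higher was the scavenger receptor Msr1, at 2.13 and 2.27 against 1.72 and 1.55 in control, although LPS macrophages had a mean of 4.87. The summed signal of the list was 0.151% and 0.155% of that of the colony arrays, against 0.817% to 1.15% on the macrophage arrays.

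Genes of all white blood cells gave the same picture. All 15 were well above background and 5 were in the top 10%. The surface protein Cd52 read 4.49 and 4.50 and the actin bundler Lcp1 read 3.96 and 4.02. Ptprc itself read 0.60 and 0.50, against means of 4.12 in control, 4.18 in IL4 and 4.98 in LPS macrophages, and Spi1, the myeloid factor PU.1, read -2.23 and -2.40 against 1.03 to 2.13. All 15 were lower than in each of the 3 macrophage groups, where 34.7% of all genes were and 17.4% were higher. Their summed signal was 0.0625% and 0.0631%, against 0.287% to 0.623% on the macrophage arrays.

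Monocyte markers were mixed. F13a1, the transglutaminase factor XIII, read 6.01 and 6.09, above all macrophage arrays (0.95 to 4.60). Ms4a4c read 5.97 and 6.01, below all of them (8.14 to 9.37). Its probe shares no 20 bases with the probe of another coding gene. Probes of several genes outside the lists of cell markers nonetheless read much the same. Cyp2u1 read 5.96 and 6.01 against 8.08 to 9.27, and Itsn1 read 5.98 and 6.05 against 8.00 to 8.95. Skint7 and Ccdc138 were among others with like readings. The reading of Ms4a4c is therefore uncertain, and whether such probes share a signal was not tested. Itgam (CD11b), shared by monocytes, macrophages and neutrophils, read 4.85 and 4.93 against 4.42 and 4.44 in control (adjusted p = 0.0038 by limma). It did not pass against LPS (adjusted p = 0.13). The direction depended on the probe: the other 2 Itgam probes read 1.94 and 1.89, and -2.64 and -2.57, below both control arrays. In all, 3 of 10 markers, Ms4a4c among them, were in the top 10%. In the fit, 4 were higher than in control and 6 were lower, beside 24.7% and 46.6% of all genes.

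Neutrophil markers were present at middling levels. All 8 genes of the primary granules, made in promyelocytes, were well above background and none was in the top 10%. Elane (neutrophil elastase) read 2.14 and 2.01, Mpo (myeloperoxidase) 1.43 and 1.36, and Ctsg (cathepsin G) 1.14 and 1.16. Mpo was above every macrophage array (-3.76 to -0.36) and above control by 2.17 ± 0.10 (log2, limma adjusted p = 1.2e-05), while Elane was below them (3.58 to 4.19). Of these 8 genes, all measured in both groups, 6 were higher than in control and 2 lower, beside 22.3% and 51% of all such genes. Both Mpo probes were above every macrophage array. The summed signal of the 8 genes was 0.0053% and 0.0050% on the colony arrays, within the macrophage range of 0.0042% to 0.0068%.

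Late neutrophil genes reached higher. Csf3r, the G-CSF receptor, read 6.68 and 6.88, and the alarmin S100a9 read 4.76 and 4.82. Its partner S100a8, at 2.70 and 2.76, lay between the control arrays of 2.89 and 2.58 (adjusted p = 0.98 by limma). With quantile scaling that difference became 0.35 with an adjusted p of 0.033. Of 12 late genes measured in both groups, 6 were higher than in control and 1 lower, beside 22.3% and 51% of all such genes. The summed signal of the late genes was 0.0703% and 0.0779% on the colony arrays, against 0.0448% to 0.0729% on the macrophage arrays.

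Mast cell and basophil genes were dim in level and mostly below background in macrophages. Of 14 markers, 11 were well above background on both colony arrays, against 4 in each macrophage group, and none was in the top 10%. Cpa3, the mast cell carboxypeptidase, read 1.75 and 1.78, at least 221-fold above control, where it was not well above background. This bound sets the colony mean against the lowest signal well above background on each control array, or against the gene's own signal where that was higher. The tryptase Tpsb2 read 0.38 and 0.33 and the chymase Cma1 read -0.49 and -0.57. The 4 measured in both groups were Tpsb2, Hdc, Prss34 and Kit. The first 3 were higher than in control, beside 22.3% of all genes measured in both groups. The other 7 markers were measured in colony cells and not in control. Kit, the receptor for stem cell factor, read -3.28 and -3.54 against -3.93 and -3.50 in control (adjusted p = 0.27 by limma). The summed signal of this list was still small, 0.0037% on each colony array. It was 0.0029% and 0.0028% on the LPS arrays and 0.0002% to 0.0003% on the control and IL4 arrays.

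Other blood lineages left little signal. Pf4 (platelet factor 4) read 6.58 and 6.59 at rank 563, and the other 9 megakaryocyte markers were outside the top 25%. Macrophages read 4.64 to 6.42 for Pf4, and colony cells were above control (adjusted p = 0.0015 by limma) but did not pass against LPS (adjusted p = 0.061). No marker of B cells, T and NK cells, eosinophils or red cells was in the top 10%, although 7 of 10, 10 of 15, 6 of 6 and 9 of 12 were well above background. Among stem and progenitor markers, Cd48 read 1.87 and 1.98 and the factor Mycn 0.69 and 0.62. Mycn was at least 103-fold above control, where it was not well above background. Of the 6 members measured in both groups, 1, Myb, was higher than in control and 1, Cd48, lower. Over all such genes 22.3% were higher and 51% lower. The summed signal of the list was 0.0027% and 0.0028% on the colony arrays, against 0.0173% to 0.0289% on the macrophage arrays.

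Endothelial markers were dim, although the cultures were grown on endothelial cells. Of 27 markers, 2 were in the top 10% and 7 were not well above background on either colony array: Cdh5, Tie1, Erg, Sox17, Sox18, Emcn and Prox1. These include the junction protein of the lineage and 4 of its transcription factors. Thbd (thrombomodulin, which is also made by mesothelial and myeloid cells) read 5.06 on both arrays and Kdr (VEGF receptor 2) read 3.72 and 3.61. Esam, a junction molecule shared with platelets and progenitors, read 2.69 and 2.92.

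Of 14 endothelial markers measured in both colony and control cells, 4 were higher in colony cells and 8 lower, with a median of -0.58, beside 22.3% and 51% of all such genes. A further 6 were measured in colony cells and not in control, and 1 in control only. Pecam1 read -2.06 and -2.01 against -2.16 and -1.94 in control (adjusted p = 0.88 by limma), so these arrays do not separate them. Vwf (von Willebrand factor) read -0.39 and -0.40, below all macrophage arrays (1.62 to 5.45). Cdh5 was at least 5.01-fold below control, where it read -3.69 and -4.08. Kdr, too, was lower than in control, by 0.68 ± 0.09 (log2, limma adjusted p = 0.0012), and by 0.31 with quantile scaling. Its second probe read -0.61 and -0.80, between the values of the control arrays. Tek (the receptor Tie2) read -3.83 and -4.18, at least 4.07-fold above control, where it was not well above background. The summed signal of endothelial markers, 0.0273% on each colony array, lay within the macrophage range of 0.0100% to 0.0335%.

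Mesothelial markers had the highest median of the 23 cell kinds. Of 14 markers, 13 were well above background on both colony arrays, against 4 in control macrophages, and 8 were in the top 10%. Msln (chr17:25885569-25885628, minus strand) read 7.62 and 7.56, while the macrophage arrays read from -8.39 to -5.37. Pdpn (podoplanin, a surface glycoprotein that macrophages can also make) read 5.92 and 6.03. The uroplakins Upk3b and Upk1b, membrane plaque proteins, read 5.38 and 5.28, and 5.06 and 5.09. Wt1 (chr2:105013656-105013715, plus strand), the Wilms tumour factor, read 4.99 and 5.07.

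The colony arrays stood apart from every macrophage array for most of these genes. Upk1b, Wt1, Rspo1, Gpm6a, Bnc1 and Lrrn4 were not well above background in any of the 3 macrophage groups. Only 4 of the 13 were measured in control cells as well. Of these, Pdpn, Muc16 (the mucin CA125) and Dmkn were higher in colony cells, and the retinal dehydrogenase Aldh1a2, at -4.46 and -4.81, did not pass (adjusted p = 0.13 by limma). Over all genes measured in both groups 22.3% were higher than in control. The other 9 markers were measured in colony cells and not in control, and no median fold is given. Calb2 (calretinin), often used as a mesothelial marker, was not well above background on any array group. The summed signal was 0.196% on each colony array and at most 0.0031% on the macrophage arrays.

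Some keratins were bright, and the other epithelial genes were not in the top 10%. Krt19 (chr11:100002392-100002451, minus strand) read 6.23 and 6.09, Krt14 4.40 and 4.43, Krt18 3.92 and 3.94, and Krt8 3.53 and 3.51. These keratins, filament proteins of epithelia of which all but Krt14 are usual in mesothelium, were the 4 members of 20 in the top 10%. The other keratins of the list, Krt5, Krt7 and Krt15, were outside the top 10%. Epcam, Cldn3, Grhl2 and Elf3, which mark most other epithelia, were not well above background, and Cdh1 (E-cadherin) read -0.67 and -0.56. Of 8 measured in both groups, 3 were higher than in control and 4 lower, with a median of -0.40, and 6 more were measured in colony cells only. Over all genes measured in both groups 22.3% were higher and 51% lower, also with a median of -0.40.

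Fibroblast genes were well above background in 26 of 29 cases, against 15 in control macrophages, and 7 were in the top 10%. After Sparc and Dcn came the matrix protein Fbln2 with 6.10 and 5.92, the collagens Col3a1 with 5.82 on both arrays and Col1a1 with 5.67 and 5.73, and Fstl1 with 5.48 and 5.58. Macrophage arrays read from -6.10 to -5.09 for Col3a1 and from -5.24 to -3.27 for Col1a1 (chr11:94813115-94813174, plus strand). Of 15 measured in both groups, 13 were higher than in control and 1 lower, with a median of 5.71. Over all such genes 22.3% were higher and 51% lower. A further 11 of the fibroblast genes were measured in colony cells only. The list was 0.368% and 0.353% of the summed colony signal and at most 0.0016% on the macrophage arrays.

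The fibroblast markers did not all follow. Col1a2, the partner chain of Col1a1 in type I collagen, read -2.12 and -2.18, below control at -1.43 and -1.07 (adjusted p = 0.0019 by limma). These 2 chains are usually made together, and each is read here by 1 probe, so that a probe that binds poorly and a low level of Col1a2 RNA cannot be told apart. Pdgfra and Thy1, surface markers of many fibroblasts, read -2.88 on both arrays and -1.80 and -1.90. Pdgfra was at least 8.87-fold and Thy1 at least 17.2-fold above control, where neither was well above background. Tcf21, Twist2 and Dpt were not well above background on the colony arrays. Pdgfrb, shared with pericytes, read 0.64 and 0.61.

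Contractile genes shared by smooth muscle and myofibroblasts were bright, and those more particular to mature smooth muscle were not. Beside Tagln and Acta2, Myl9 (myosin light chain) read 5.19 on both arrays, Tpm1 4.62 and 4.57, Tpm2 4.29 and 4.30, and Smtn (smoothelin) 3.87 and 3.78. Myh11, the smooth muscle myosin, read -5.73 and -6.12 and Des (desmin) -5.91 and -5.92, near the lowest signals well above background. Myocd and Lmod1 were not well above background. In all, 13 of 19 were, and 6 were in the top 10%. All 9 measured in both groups were higher than in control, beside 22.3% of all such genes.

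Basement membrane genes, which form the sheet beneath endothelial, epithelial and mesothelial cells, were as prominent. Of 17, 15 were well above background and 8 were in the top 10%. The laminin chain Lama5 read 5.92 and 5.98, perlecan (Hspg2) 4.64 and 4.61, and the collagen chains Col4a2 and Col4a1 4.54 and 4.25, and 4.38 and 4.15. Of 10 measured in both groups, 8 were higher than in control and 2, Col18a1 and Lama3, lower, with a median of 5.22. Of 44 collagen genes, 6 were in the top 10%. Of 22 measured in both groups, 11 were higher than in control and 7 lower, beside 22.3% and 51% of all such genes.

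**Figure D4:**
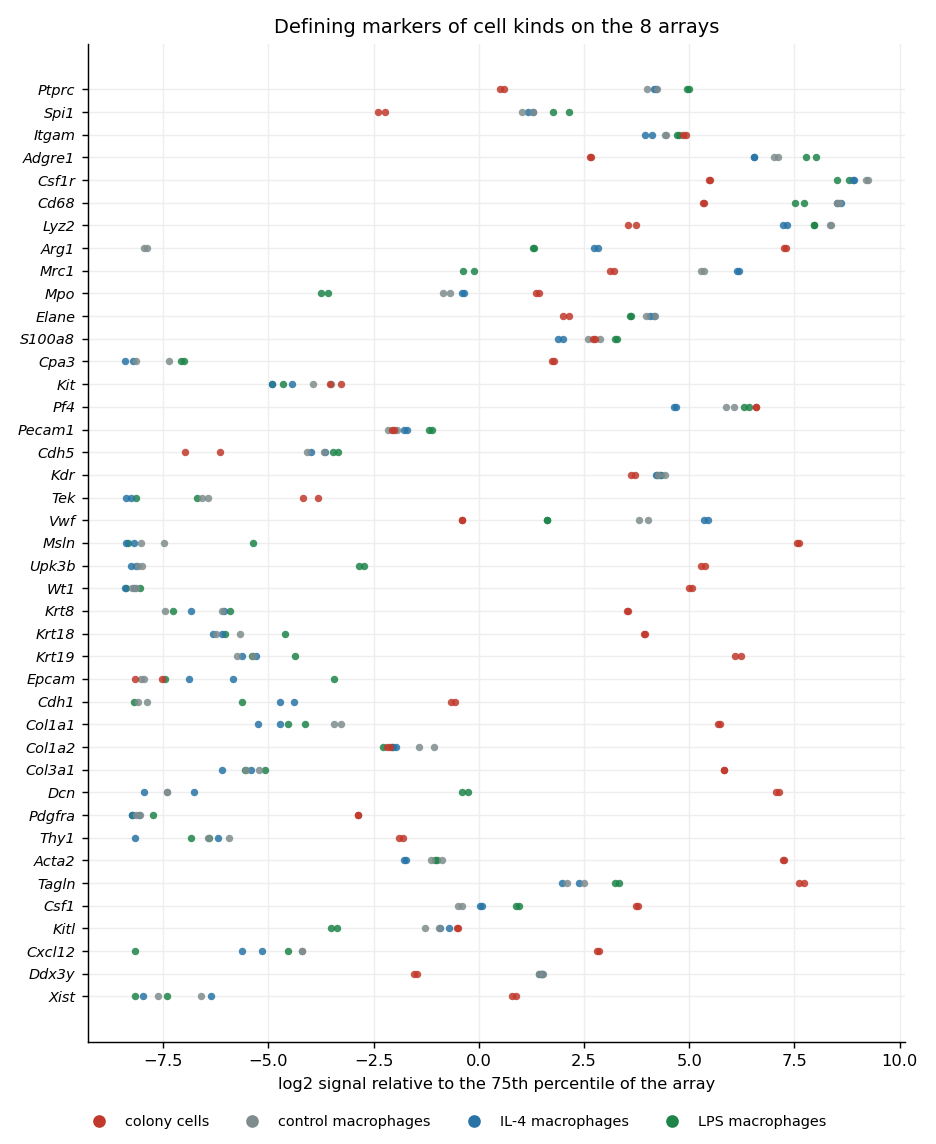
Defining markers of cell kinds (y axis) on each of the 8 arrays, as log2 signal relative to the 75th percentile (x axis). Each point is 1 array, coloured by group. Colony arrays lie below the macrophage arrays for Ptprc, Adgre1 and Csf1r, and far above them for Msln, Wt1, Krt19, Col3a1 and Acta2.

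Markers of tissues that the labels do not name give a measure of such readings. No marker of fat, bone and cartilage, skeletal muscle or liver cells was in the top 10%, of 9, 10, 8 and 8 genes, while 4, 7, 3 and 3 of them were well above background. Of 11 neural markers, 2 were in the top 10%: Mbp (myelin basic protein) with 4.87 and 4.82, and Snap25, a protein of vesicle fusion, with 4.25 and 4.30. Control macrophages read 4.86 on both arrays for Mbp and 3.40 and 3.17 for Snap25.

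Genes tied to macrophage activation were uneven. Of 18 genes of alternative activation, 15 were well above background and 6 were in the top 10%. Arg1 (chr10:24636194-24636253, minus strand) read 7.25 and 7.31, against means of 2.78 in IL4 and 1.29 in LPS macrophages, and it was not well above background in control. The lectin Mgl2 read 6.08 and 6.02, the haem oxygenase Hmox1 5.23 and 5.43 and the lipid receptor Trem2 4.90 and 4.88. The mannose receptor Mrc1 read 3.12 and 3.22, below control by 2.14 (adjusted p = 1.7e-05 by limma) and below IL4 (adjusted p = 5.0e-06). Both LPS arrays were lower than the colony arrays for Mrc1, at -0.37 and -0.12. Retnla, a secreted protein that IL4 induces in macrophages, read -5.11 and -5.58 against a mean of 9.26 in IL4 macrophages.

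Of 11 genes of this list measured in both colony and control cells, 3 were higher in colony cells and 6 lower. Over all such genes 22.3% were higher and 51% lower. Of 13 measured in both colony and IL4 cells, 1 was higher and 12 were lower, with a median of -2.76, where 21.4% and 51.9% of all such genes were higher and lower, with a median of -0.41. Cd163, Il10 and Ccl22 were not well above background on the colony arrays. Classical activation genes were lower still in rank, with none of 10 in the top 10%. Nos2, the inducible nitric oxide synthase, was the brightest at 1.43 on both arrays, against a mean of 5.17 in LPS macrophages. Il1b read -4.99 and -4.53 and Tnf -2.36 and -2.46. Of 6 measured in both groups, 1 was higher and 5 were lower than in control, with a median of -3.39. The shares over all such genes were again 22.3% and 51%, with a median of -0.40.

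Growth factors that macrophages and blood progenitors respond to were mostly dim. Csf1, which encodes M-CSF, was the 1 member of 18 in the top 10%, with 3.78 and 3.74, above all macrophage arrays (-0.50 to 0.96). It was higher than control by 4.21 ± 0.08 (log2, limma adjusted p = 6.9e-07). Among its other 3 probes, 2 read 0.47 to 0.71 on the colony arrays and were above the macrophage arrays too, and 1 was not well above background. Cxcl12, the chemokine that holds stem cells in marrow, read 2.85 and 2.82 and was higher than control (adjusted p = 0.0020), and Bmp4 read 2.29 and 2.26. Kitl (stem cell factor) read -0.51 and -0.49, above control with an adjusted p of 0.011. Csf2 and Csf3 were not well above background.

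Genes of cell division were well above background in all 24 cases and 9 were in the top 10%. The replication helicase subunits Mcm6 and Mcm7 read 5.67 and 5.72, and 4.69 and 4.71, the sliding clamp Pcna read 5.40 and 5.51, and Rrm2, which makes deoxynucleotides, read 3.92 and 3.96. Mki67, a marker of cycling cells, read 3.31 and 3.30 against means of 0.77 in control, 1.06 in IL4 and 2.29 in LPS macrophages. Of 24 tested, 21 were higher than in control and 2 lower, the latter being Pcna and Cenpa, and the median was 2.87. Over all genes 24.7% were higher and 46.6% lower than in control, with a median of -0.35.

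Glycolysis was among the brightest lists, with 6 of 15 genes in the top 1% and 12 in the top 10%. Aldoa read 8.07 and 8.09, Ldha 7.81 and 7.86 and Gpi1 7.42 and 7.35. Of the 15, 12 were higher than in control and none lower, with a median of 0.65, while against LPS 3 were higher and 11 lower, with a median of -0.49. Over all genes 24.7% were higher and 46.6% lower than in control, with a median of -0.35. Against LPS 26.6% of all genes were higher and 49.8% lower. Quantile scaling moved the glycolysis median against LPS to 0.02. Of 84 ribosomal protein genes tested, 6 were higher and 40 lower than control, with a median of -0.28. The share that was lower was thus near that of all genes. Against LPS 39 were higher and 10 lower, with a median of 0.24. The ribosomal counts against control also depended on scaling, with 33 higher and 14 lower by quantile scaling.

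Lysosomal genes, abundant in macrophages, were in the top 10% in 17 of 20 cases. Ctsl (cathepsin L) read 7.99 and 8.11, Lamp1 7.77 and 7.68 and Ctsd 7.79 and 7.66. Of 20 tested, 18 were lower than in control and 2 higher, Ctsl and Ctsk, with a median of -1.54, beside 46.6% and 24.7% of all genes. Of the galectins, annexins and S100 proteins, 13 of 18 were in the top 10%, among them Lgals3 at 7.67 on both arrays. Anxa8, an annexin of epithelia, read 4.92 and 4.85 against a control mean of -3.39. The metal-binding Mt2 read 6.90 and 6.77.

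Sex-linked transcripts differed in level from the macrophages too. Xist, the RNA of the inactive X chromosome in females, read 0.88 and 0.78 and was not well above background in any macrophage group. Ddx3y, on the Y chromosome, read -1.46 and -1.53 against a mean of 1.47 in control macrophages. Kdm5d, also on the Y, was not well above background in colony cells. The labels give no sex, and the part of these differences in the other results was not tested.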

How the data were processed

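Total RNA was measured on 8 Agilent 1-colour arrays, 2 per group. The authors deposited scanner files. Per the file headers, the intensity of each spot came from Agilent Feature Extraction 10.7.3.1 (build mm9) and was background-subtracted and detrended but not scaled between arrays. Other columns of the deposited files, 0 or 1 per spot, mark detection above background, saturation, unevenness and outliers. The authors also deposited a value table on the log2 scale, whose columns followed the scanner's log2 signal up to a shift per array, for 34119 of 55681 probes. The shift and the choice of probes are not given in the sources used here, and its column medians ran from 2.53 to 2.96. Partek 6.4 and RMA are named, without a role, in the submitters' processing notes. With 1 slide and 1 scan for all arrays, there was no batch of slide or scan to compare. Batches of culture or RNA extraction were not compared.

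Uneven and outlying spots were left out, log2 signals were set relative to the 75th percentile of each array, and spots of a probe were averaged (Python 3.11.15, numpy 2.4.6, pandas 2.3.3). A gene was ranked by the probe with the highest mean over all 8 arrays among those well above background on both colony arrays. Names came from RefSeq by transcript (26762 probes), symbol (3819) or synonym (603), and otherwise from the array files. Positions are those in the files. Exons and UTRs of mm9 were not used here. Close paralogs can share probes.

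Comparisons used limma 3.58.1 (R 4.3.3), fitted as 4 group means over 8 arrays, with 4 residual and 1.59 prior degrees of freedom and Benjamini-Hochberg adjustment over 26507 genes from 39411 probes. A probe had to pass that mark on both arrays of at least 1 group, and 37 genes lacked a value on at least 1 array. A gene chosen for its colony level has no p. With 2 arrays a group the smallest two-sided p of an exact permutation test is 0.333, so calls rest on variances shared across genes, and the number of arrays limits precision. The fit was tested on simulated data. Genes named are the 30 highest with a symbol, up to 4 highest per list, defining markers, and, of the top 100, the 10 with the largest and the 10 with the smallest difference from control and the 5 that differ most between the colony arrays. Others were named after their values were seen. The members and lists were chosen with earlier results of these data known.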

Additional observations from a re-analysis of the deposited data

How the results depend on the processing

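Of 136 values for the ranking, the 5 lists followed, the shared top 100 and the counts of calls, 135 kept their direction and stayed within 1.5 times, and the 1 that moved was the count of endothelial markers in the top 10%, from 2 to 1 with the median over probes of a gene. Over all lists, 160 of 2808 counts moved by more than 1.5 times. Of the top 100 names, 88 were kept with normexp background correction, 69 with the median over probes, 81 without probes that hold a repeated stretch (an alternative chosen after seeing the data), and 96 or 97 on 1 colony array. Genes higher than control numbered 6550, and 5344 to 7447 over the other settings; genes lower numbered 12356, and 11091 to 15648. Leaving out 1 array gave 5764 to 6324 higher and 10627 to 11604 lower, with the lone array assumed to vary like the others. Over the 40 defining markers tested, 1418 of 1440 values kept their direction and call, 15 lost the call and 5 gained it. Quantile scaling reversed 2: S100a8 against control (0.35, adjusted p = 0.033) and Kdr against LPS (0.0154, adjusted p = 0.90), and the cause was not tested. Same-numbered arrays of 2 groups deviated together with a correlation between -0.16 and 0.05, across genes that are not independent. With 2 arrays a group these values cannot decide whether same-numbered samples are paired. With the replicate number as a block, 6423 genes were higher and 12051 lower than control, 6260 and 12229 for IL4, and 6889 and 12955 for LPS. Crossing the colony numbers, chosen after seeing the data, gave 6447 and 12093, 6309 and 12276, and 6953 and 12978. No spot was saturated, so leaving out saturated spots could not be run as a change. Genes not well above background in a group are compared there by bounds only, and readings near the lowest signal above background, such as those of Myh11 and Des, are imprecise.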

Other observations

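Several bright genes outside the lists were well above the macrophage arrays, and they were picked after their values were seen, so no test is given. Genes of amino acid supply and its stress response were among them. Asns (asparagine synthetase) read 6.11 and 6.13, while macrophage arrays read 1.67 to 4.02. Trib3, a pseudokinase of that response, read 5.46 and 5.51 against -0.77 to 1.26, and the factor Atf5 had a mean of 6.45 against 4.10 to 5.47. Gars, the glycyl-tRNA synthetase, read 7.34 and 7.37 against 5.14 to 5.81.

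A second group comprised Ptgis (prostacyclin synthase, 5.97 and 5.93), Aldh1a1 (retinal dehydrogenase, 6.09 and 6.02) and Timp3 (an inhibitor of matrix proteases, 5.96 and 6.13). Their macrophage arrays read between -7.99 and -2.61. The bright genes that were below all 6 macrophage arrays included Apoe (apolipoprotein E) with 5.96 and 5.88 against 8.78 to 9.76, Tyrobp (the adaptor DAP12) with 5.30 and 5.35 against 8.02 to 8.55, and H2-D1 (an MHC class I chain) with 6.66 and 6.51 against 8.14 to 8.73.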
